A study of Mus musculus with 12 samples.

Results

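The 38 genes described here are antiviral effectors, nucleic acid sensors and transcription factors of the type I interferon response, named by symbol in a list that was drawn up with earlier results of these data known. All 38 symbols were found among the 54532 genes of the count table. Whole spinal cord RNA had been sequenced from C57BL/6 mice aged 2 to 3 months, with 3 libraries in each of 4 groups, and each library was labelled as a biological replicate. Control mice (genotype label wt, littermates) and mice with a conditional knockout of Drd2 (label Drd2mGFAP cKO, called cKO here) were sampled without disease (basal) or at day 17 of experimental autoimmune encephalomyelitis (EAE), an immunization-induced attack on myelin used as a model of multiple sclerosis. The series places that day at the peak of disease. GFAP in the cKO label is an astrocyte gene whose promoter is used to limit deletion to astrocytes, and the tissue was the whole cord, so the RNA of astrocytes was measured together with that of all other cells. The title names inhibition of the dopamine receptor D2 of astrocytes and its effect on inflammation of the central nervous system as the subject.

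Type I interferons (the interferon alphas and interferon beta) bind the receptor formed by IFNAR1 and IFNAR2, whose kinases JAK1 and TYK2 phosphorylate STAT2. With IRF9 it enters ISGF3, a transcription factor complex that binds interferon-stimulated response elements in promoters and switches on a broad antiviral program. Many of the same genes also respond to interferon gamma, the type II interferon made by T cells and natural killer cells. In EAE, interferon responses have been described in microglia, astrocytes and infiltrating leukocytes.

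The libraries held 15128913 to 17592105 counts. Levels are given as CPM, the counts divided by library size after TMM scaling, and levels of different genes are compared only as RPKM, which also divides by gene length. A gene was called at a Benjamini-Hochberg adjusted p below 0.05 in edgeR's quasi-likelihood test over all genes tested. Responses to EAE and differences between genotypes are log2 fold changes ± SE from that test. Drd2 (chr9:49340627-49408177, plus strand) was at 26.9, 19.4 and 19.8 CPM in control basal, 17.6, 31.4 and 34.7 CPM in cKO basal, 8.93, 9.10 and 9.77 CPM in control EAE and 6.64, 12.4 and 19.6 CPM in cKO EAE. Its level in the cKO libraries overlapped that of the controls in both states, and a whole-cord count does not test a deletion limited to some cells. Markers of astrocytes, oligodendrocytes, neurons and motor neurons were counted in every library. Their summed levels ranged from 1367 to 3888 CPM for 6 astrocyte genes and from 2137 to 7654 CPM for 6 neuronal genes. For 6 oligodendrocyte genes the range was 12563 to 59258 CPM, highest in cKO basal 2. Sums of 5 motor neuron genes ranged from 32.7 to 293 CPM, with 32.7 to 66.0 CPM in control EAE and 141 to 293 CPM in cKO EAE. Xist, an RNA made by cells with an inactivated X chromosome, was at 320.1 to 754 CPM in the 6 basal libraries and at 0 to 0.284 CPM in the 6 EAE libraries. Ddx3y, a Y-linked gene, had 0 counts in the basal libraries and 70.1 to 74.5 CPM in the EAE libraries. Sex and EAE therefore cannot be told apart in any comparison of EAE with basal libraries. There were also 2 libraries that stood apart from their groups. The library cKO basal 2 had counts for 17220 genes against 24303 to 26056 in the other libraries, and 8 of the 38 interferon-stimulated genes had 0 counts in it. The library cKO EAE 3 was near the basal libraries in these genes. Results that rest on either library are given with and without it, and the fit without both was added after the data were seen. Because cKO EAE 3 was set apart by its levels in these same genes, calls made without it describe the remaining libraries. They are not an independent test of the response.

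Promoter sequence was examined because the members moved together in EAE. RefSeq promoter windows of build GRCm38.p6, from 250 bases before to 50 bases after the start of transcription, were found for 27 of the 38 members, 3 of which had 2 windows. A core of the interferon-stimulated response element (GAAA, any 2 bases, GAAA) was searched on both strands, with overlapping matches allowed. It occurred in 14 of the 27 members (51.9%, exact 95% interval 31.9 to 71.3) and in 3.99% of the 27025 genes with a window, or 3.44% of all 32851 windows of that length. When CT had to follow, 8 members (29.6%) and 0.303% of genes had a match. A pair of GAAA runs 1 to 3 bases apart was found in 19 members (70.4%) and in 9.91% of genes. A match is a description of the letters and was not tested as a binding site.

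The 200 bases before the start are shown for 6 members with several matches, from 4 families of effectors. They are written 5′ to 3′ on the strand of the gene, with every base of a match in capitals. In the Ifit promoters the match lies on the opposite strand, so that it reads as TTTC runs 2 bases apart. Ifit1 (chr19:34640689-34640888, plus strand) has matches that begin 104 and 85 bases before the start. Ifit3 (chr19:34583329-34583528, plus strand) and Ifit3b (chr19:34607757-34607956, plus strand) share an unbroken run of 169 bases within their windows, which holds both matches of each gene. Isg15 (chr4:156200819-156201018, minus strand) has 3 matches that overlap one another, Oas1a (chr5:120907526-120907725, minus strand) has 2 that overlap and end 5 bases before the start, and Bst2 (chr8:71537473-71537672, minus strand) has 2 that overlap.
Ifit1: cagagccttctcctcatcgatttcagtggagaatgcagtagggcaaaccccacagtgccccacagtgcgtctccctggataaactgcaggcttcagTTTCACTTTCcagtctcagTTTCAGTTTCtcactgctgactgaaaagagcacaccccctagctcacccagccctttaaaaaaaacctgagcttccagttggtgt
Ifit3: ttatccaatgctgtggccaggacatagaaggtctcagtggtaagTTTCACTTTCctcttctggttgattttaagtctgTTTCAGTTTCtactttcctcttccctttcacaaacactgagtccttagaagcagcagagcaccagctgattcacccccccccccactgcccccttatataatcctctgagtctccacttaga
Ifit3b: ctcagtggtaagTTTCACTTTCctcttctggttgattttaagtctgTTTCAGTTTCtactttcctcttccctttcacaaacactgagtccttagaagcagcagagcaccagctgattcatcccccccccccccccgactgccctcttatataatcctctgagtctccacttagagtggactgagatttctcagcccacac
Isg15: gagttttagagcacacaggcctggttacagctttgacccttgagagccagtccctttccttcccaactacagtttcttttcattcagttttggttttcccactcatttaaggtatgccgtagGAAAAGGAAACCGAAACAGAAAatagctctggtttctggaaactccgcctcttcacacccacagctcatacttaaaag
Oas1a: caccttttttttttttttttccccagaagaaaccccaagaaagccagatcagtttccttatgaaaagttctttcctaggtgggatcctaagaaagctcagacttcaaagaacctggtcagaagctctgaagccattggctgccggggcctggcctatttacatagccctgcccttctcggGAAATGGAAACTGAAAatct
Bst2: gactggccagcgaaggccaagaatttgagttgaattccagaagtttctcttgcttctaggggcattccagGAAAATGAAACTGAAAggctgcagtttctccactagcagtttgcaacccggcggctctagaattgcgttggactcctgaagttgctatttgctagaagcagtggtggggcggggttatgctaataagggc

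**Figure D1:**
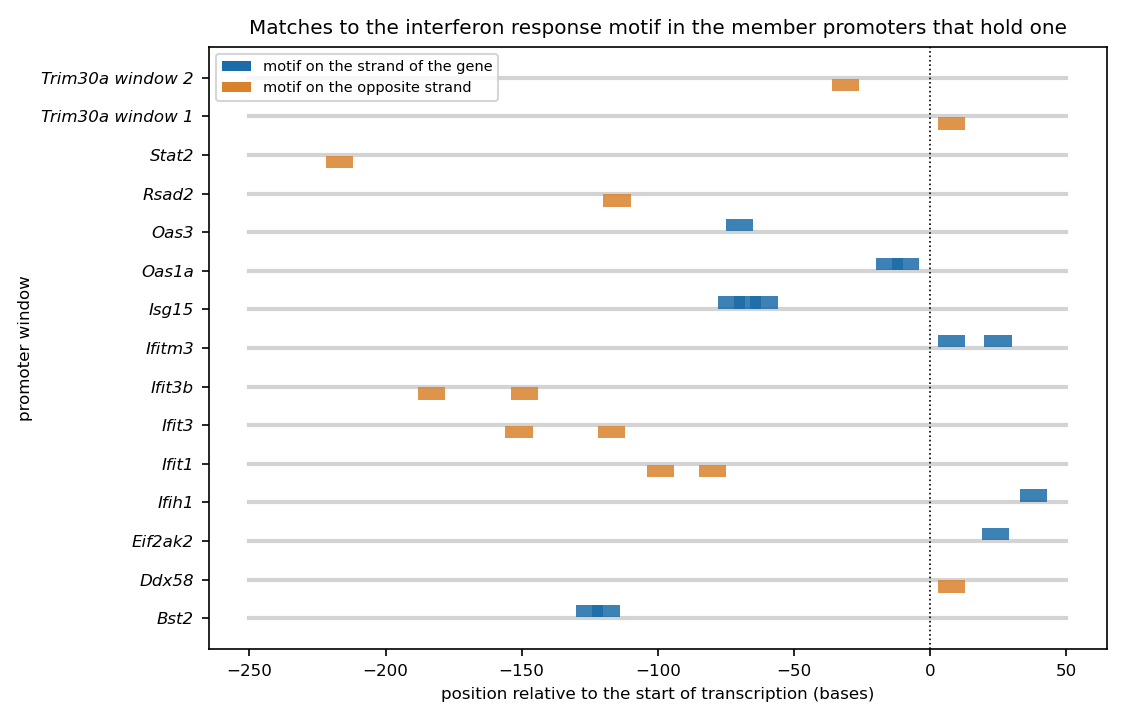
Positions of the response element core in the promoter windows of the 14 members that hold it. The x axis is the distance in bases from the start of transcription (dotted line) and each row is a window. The colour gives the strand relative to the gene. In Isg15, Oas1a and Bst2 the matches overlap. In Ddx58, Eif2ak2, Ifih1, Ifitm3 and a window of Trim30a they lie after the start.

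The members with a match and those without it covered similar ranges of response. The median log2 fold change of EAE against basal in control mice was 4.13 (range 2.70 to 7.71) in the 14 with a match and 3.73 (range 0.93 to 5.98) in the 13 without one. Irf7, Oasl1, Oasl2 and Ifi44 had no match in their windows and log2 fold changes of 5.57, 5.98, 5.44 and 5.01. Stat2 and Eif2ak2 had a match and log2 fold changes of 2.70 and 3.14.

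In control mice all 38 members were higher at EAE than in basal cord, a comparison in which sex differed too. The nucleic acid sensors Zbp1 (8.82) and Ifi204 (8.06) and the oligoadenylate synthetase Oas3 (7.71) had the highest log2 fold changes. The nucleotide kinase Cmpk2 (0.93), the GTPase Mx2 (2.27) and the ISGF3 subunit Irf9 (2.55) had the lowest. The background was 12.1%, the share of 18601 genes tested that were called higher in the same comparison. Over the members the median log2 fold change was 4.22 (range 0.93 to 8.82) and adjusted p ran from 0.00318 to 0.0392, while the median of all genes tested was -0.0065. For each of the 38, the lowest control EAE library was above the highest control basal library, which held for 30% of all genes tested in that direction. Without cKO basal 2 and cKO EAE 3 (the 10-library fit) all 38 were called, with a median of 4.23 against a background of 24.9%. When each control library was left out in turn, 31 to 35 members were called, against 6.8% to 8.7% of all genes called higher. Cmpk2, Ifih1 and Mx2 were lost whichever library was left out, Ddx58, Ifi35 and Samd9l in 4 of 6 cases and Ifit1 in 3 of 6.

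**Figure D2:**
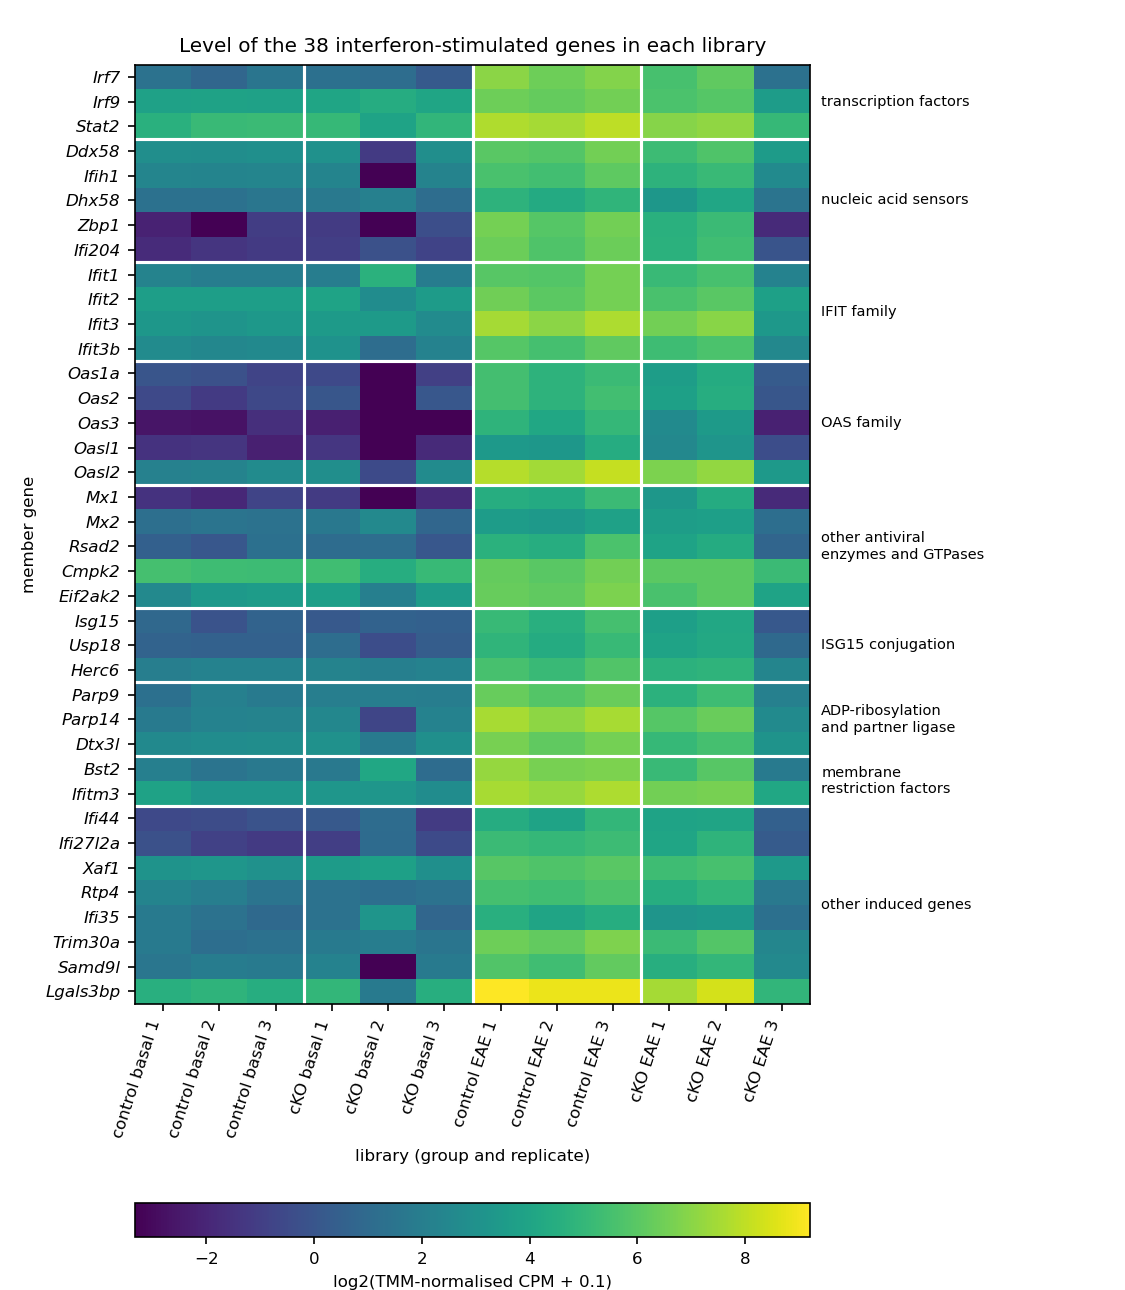
Level of each of the 38 genes (rows, grouped by role) in each of the 12 libraries (columns), as log2(TMM-normalised CPM + 0.1) on the colour scale. The 3 control EAE libraries are high for all rows, cKO EAE 1 and 2 are intermediate for most, cKO EAE 3 is close to the basal libraries, and cKO basal 2 is at 0 counts for 8 genes.

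The same contrast in cKO mice gave 0 called members of 38 in edgeR, with 36 at an unadjusted p below 0.05 (19.6% of all genes), a median log2 fold change of 2.88 (range 0.65 to 6.84) and adjusted p from 0.0726 to 0.622. The background was 0.0323%, since only 6 genes of the whole table were called higher. DESeq2 called 31 members, against 5.67% of all genes called higher by it, and limma voom with sample weights 34, against 11.5%. The groups did not overlap for 17 of 38 members, against 10.1% of genes. Without cKO EAE 3 the groups did not overlap for 37 of 38, all but Ifi35, against 21.8% of genes. The test then called 32 members, against a background of 5.4%, and not Bst2, Cmpk2, Ifi35, Ifih1, Ifit1 or Samd9l. Leaving out cKO basal 2 alone gave 0 called members, with a background of 0.0315%. In the 10-library fit all 38 were called, with a median of 3.40 and a background of 10.8%. That fit leaves out the EAE library that was lowest in the summed level of these same genes.

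Across libraries, cKO EAE 1 lay above all 6 basal libraries in 37 members, cKO EAE 2 in 38 and cKO EAE 3 in 13. With cKO basal 2 left out of the basal libraries, the number for cKO EAE 3 was 15. The share of all genes was not counted for this measure, so these numbers describe the members alone. The median member in cKO EAE 3 was at a log2 difference of 0.22 from the control basal mean. In cKO EAE 1 and 2 that difference was 2.90 and 3.35, and in the control EAE libraries it was 3.97, 3.66 and 4.31.

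The difference between the EAE responses of the 2 genotypes was not called for any member (0 of 38, background 0%). It was negative in all 38, with a median of -1.23 (range -3.08 to -0.17), a smallest adjusted p of 0.547 and 6 members at an unadjusted p below 0.05 (9.12% of all genes). DESeq2 and limma voom also called 0, against 0.172% and 7.35% of all genes called negative by them. In the 10-library fit 0 members were called, 21 had an unadjusted p below 0.05 (18.1% of all genes), the median was -0.81 and the smallest adjusted p was 0.0943. A difference between the genotypes in the size of the response is therefore not established by these tests.

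**Figure D3:**
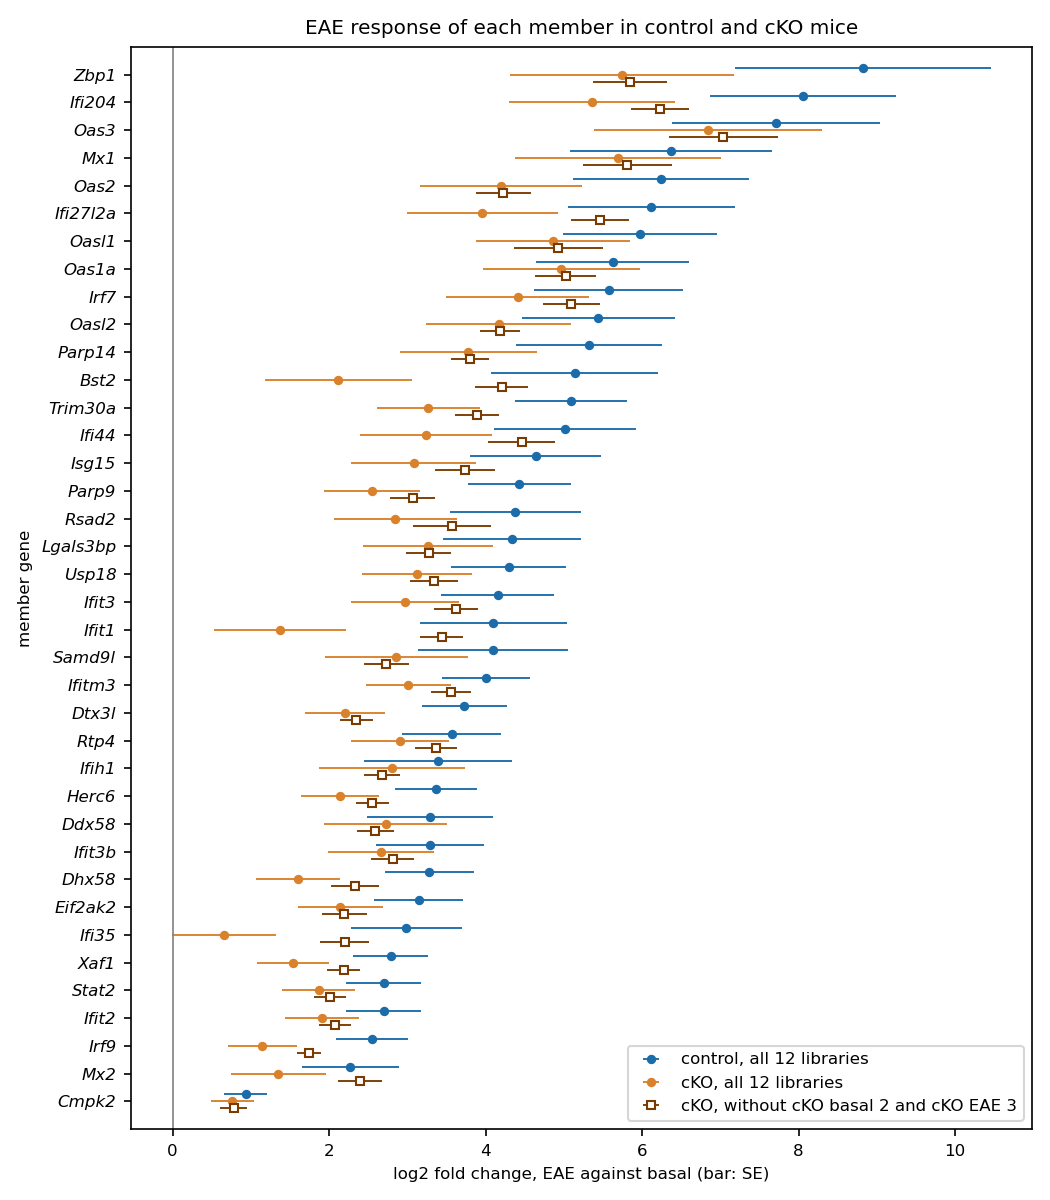
log2 fold change of EAE against basal for each member in control mice (blue) and cKO mice (orange), with bars for 1 SE, from all 12 libraries. Open squares give the cKO response in the 10-library fit; control values lie to the right of the cKO values for all 38 genes in the 12-library fit.

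The genotypes were then compared within EAE, where all 6 libraries were alike in Xist and Ddx3y and the control libraries are those already used for the EAE response. Of the 38 members 0 were called lower in edgeR, against a background of 1.54% of 17914 genes tested, and 3 had an unadjusted p below 0.05, which held for 35.9% of all genes. The median log2 difference was -1.31 (range -2.09 for Oas3 to -0.33 for Mx2), and the median of all genes tested was -0.000188. The smallest adjusted p belonged to Ifi35 (0.0968), Dtx3l (0.0983) and Samd9l (0.116). All 3 cKO EAE libraries were below all 3 control EAE libraries in 33 of 38 members, which held for 28.2% of genes. Cmpk2, Ifi44, Ifit3b, Mx1 and Mx2 were the members whose groups overlapped. The call turned on cKO EAE 3, the lowest library of its group. Without it, 23 members were called lower (background 9.1%), 33 had an unadjusted p below 0.05 (33.8% of all genes) and the median was -0.81, smaller in size than with it. The 15 not called were Cmpk2, Ddx58, Eif2ak2, Ifi27l2a, Ifi44, Ifit1, Ifit2, Ifit3, Ifit3b, Mx1, Mx2, Oasl1, Rsad2, Usp18 and Xaf1, and Mx2 then had a positive value (0.13). With all 6 libraries DESeq2 called 3 members lower, against 10.6% of all genes, and limma voom 8, against 15.5%.

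**Figure D4:**
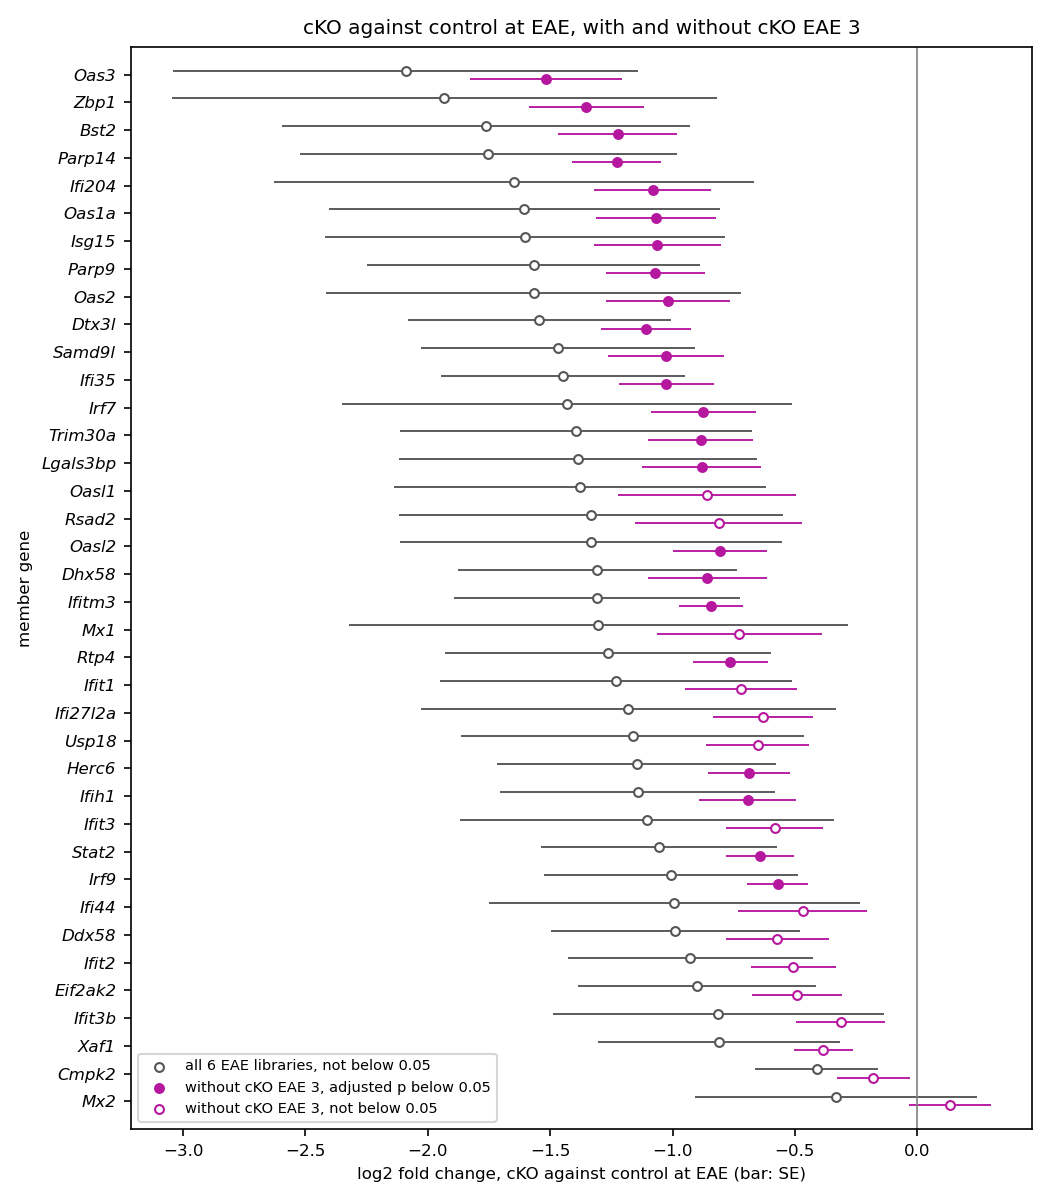
log2 fold change of cKO against control at EAE for each member, with bars for 1 SE, from all 6 EAE libraries (grey) and without cKO EAE 3 (purple, filled where the adjusted p was below 0.05). With all libraries every value is negative and none passes; without cKO EAE 3 the values are nearer to 0, the bars are shorter and 23 pass.

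Markers of leukocytes were measured beside these results, since bulk RNA does not distinguish fewer cells of a type from less RNA per cell. The summed level of the 38 members was 238, 243 and 243 CPM in control basal, 273, 202 and 221 CPM in cKO basal, 3449.9, 2650.4 and 3659 CPM in control EAE and 1505, 2091 and 281 CPM in cKO EAE. The pan-leukocyte genes Ptprc, Cd52, Laptm5 and Coro1a, all 4 called higher in control EAE (12.1% of all genes), summed to 71.6, 64.1 and 60.00 CPM, 62.4, 128 and 63.0 CPM, 1051, 857 and 937 CPM and 332, 579 and 69.0 CPM in the same order. Both sums put the EAE libraries in nearly the same order, with the control libraries highest, then cKO EAE 2, cKO EAE 1 and cKO EAE 3. The ratio of the members to the leukocyte genes was 3.28, 3.09 and 3.90 in control EAE and 4.53, 3.61 and 4.08 in cKO EAE. It was 3.32, 3.80 and 4.05 in control basal and 4.37, 1.57 and 3.51 in cKO basal. Those ranges overlap between states and genotypes. The ratio of the members to 8 microglial genes was 1.07 to 1.52 over the 6 basal libraries, 3.08, 2.47 and 3.34 in control EAE and 2.92, 2.22 and 1.22 in cKO EAE. It did not overlap between states in control mice, and cKO EAE 3 lay within the basal range.

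Markers of several infiltrating cell types were measured. In control EAE 12.1% of all genes tested were called higher. All 8 monocyte and macrophage genes rose in control EAE, where they summed to 4403, 2231 and 1854 CPM, against 14.8, 7.80 and 5.55 CPM in control basal and 496, 888 and 22.1 CPM in cKO EAE. F10 had 0 counts in control basal. All 8 T cell genes rose too, summing to 5.02, 4.09 and 5.43 CPM in control basal, 111, 103 and 108 CPM in control EAE and 30.6, 48.0 and 5.46 CPM in cKO EAE, and Cd3g had 0 counts in control basal. Of 8 microglial genes 6 rose, and their sum was 204.9 to 222 CPM in control basal, 1073 to 1121 CPM in control EAE and 515, 942 and 229.8 CPM in cKO EAE. B cell genes summed to 1.71 to 3.71 CPM in every library. Of the neutrophil genes 5 of 6 were tested and 0 were called, with sums of 16.0, 5.53 and 1.16 CPM in control basal, 7.45, 102 and 2.56 CPM in cKO basal, 63.0, 78.6 and 83.3 CPM in control EAE and 99.8, 53.9 and 27.9 CPM in cKO EAE. Here cKO EAE 1 was above every control EAE library, and cKO basal 2 above all the others. The neuronal list went the other way, with 4 of 6 genes lower in control EAE (5.05% of all genes). In cKO EAE 4 of 6 were higher than in control EAE (6.13% of all genes). In cKO against control at EAE, 1 of 8 T cell genes and 0 of 8 monocyte genes were called lower with all libraries (1.54% of all genes). Without cKO EAE 3 all 8 of each were called lower (9.1% of all genes). With library totals, the replicate block or all 12 libraries in the fit, 0 genes of the whole table were called in this comparison. The part of these cell types in the levels of the 38 members was not tested.

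**Figure D5:**
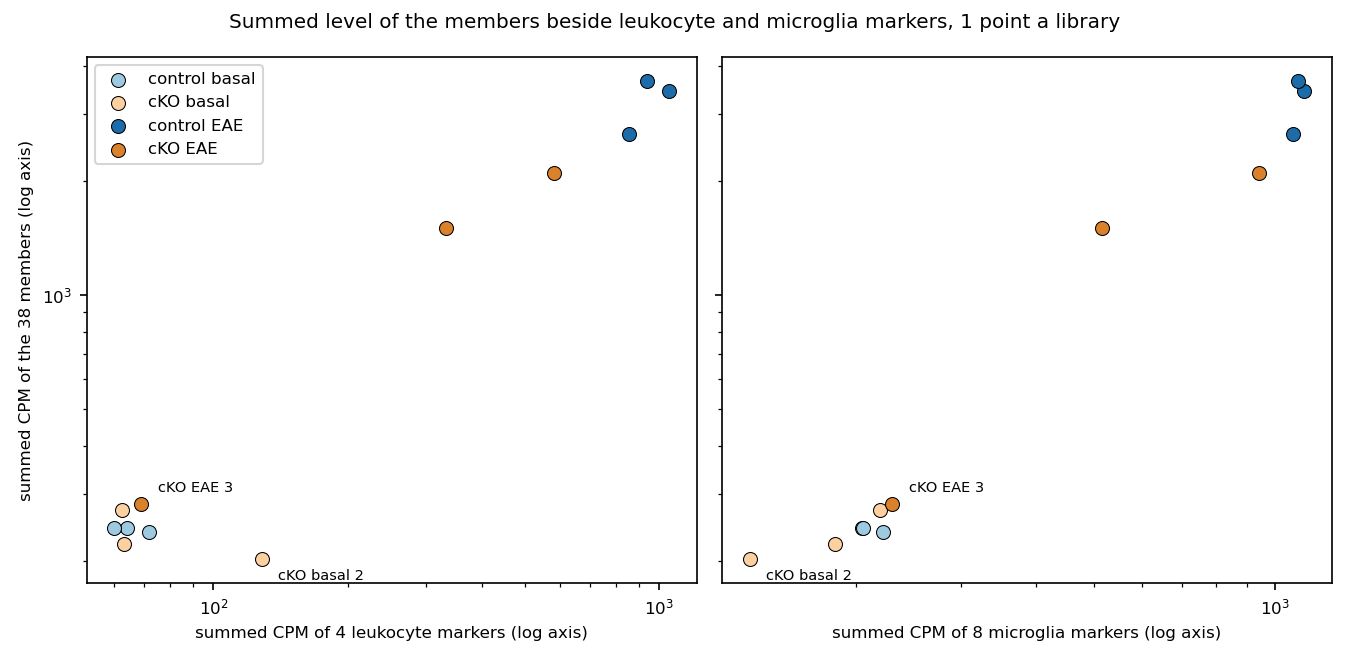
Summed CPM of the 38 members (y axis, log scale) against the summed CPM of 4 pan-leukocyte genes (left) and 8 microglial genes (right), both on log scales, with 1 point for each library. The 3 control EAE libraries lie at the upper right, cKO EAE 1 and 2 below them, and cKO EAE 3 next to the basal libraries, just above them in the member sum (281 against 202 to 273 CPM).

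Among the transcription factors, Stat2 and Irf9 are the subunits of ISGF3 that are specific to the type I and III pathways, and Irf7 amplifies interferon production once induced. Stat2 was at 24.9, 35.6 and 36.8 CPM in control basal and 209.8, 180.4 and 246 CPM in control EAE, a log2 fold change of 2.70 ± 0.48 (SE, adjusted p = 0.00436). In cKO mice it was at 33.8, 15.4 and 30.5 CPM in basal and 121, 138 and 33.5 CPM in EAE. The cKO EAE libraries 1 and 2 lay between the basal and the control EAE libraries, and cKO EAE 3 lay within the basal range. Irf9 was at 14.4, 14.9 and 14.1 CPM in control basal, 16.2, 21.2 and 16.5 CPM in cKO basal, 87.3, 74.7 and 92.9 CPM in control EAE and 49.9, 59.5 and 12.1 CPM in cKO EAE. Its response was 2.55 ± 0.46 in control mice (adjusted p = 0.00471) and 1.15 ± 0.44 in cKO mice (adjusted p = 0.214). Of the 31 members tested in basal cord, Irf9 alone had all 3 cKO libraries above the control libraries (0.37 ± 0.25, adjusted p = 0.997). In the cKO EAE 3 library it was below all 6 basal libraries. The third factor, Irf7, averaged 2.33 ± 0.604 CPM in control basal and 112 ± 23.7 CPM in control EAE (SD, n = 3), with a log2 fold change of 5.57 ± 0.95 that was the highest of the 3 factors. Irf9 overlaps Rnf31 on the same strand and Irf7 overlaps Phrf1 on the other, so reads of these pairs may not be fully separated.

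The nucleic acid sensors held the members with the steepest responses. Zbp1, a sensor of Z-form nucleic acids that can start necroptosis, had 0.129, 0 and 0.388 CPM in control basal and 0.349, 0 and 0.716 CPM in cKO basal. It reached 95.4, 60.5 and 91.4 CPM in control EAE and 24.4, 37.6 and 0.184 CPM in cKO EAE. The control response was 8.82 ± 1.64 (adjusted p = 0.0051), and cKO EAE 3 stood within the basal range while the other 2 cKO EAE libraries were far above it. Ifi204, an interferon-inducible DNA-binding protein, went from 0.193, 0.277 and 0.333 CPM to 83.7, 54.6 and 84.6 CPM in control mice (8.06 ± 1.18, adjusted p = 0.00318). In cKO mice it went from 0.408, 0.771 and 0.477 CPM to 25.8, 41.6 and 0.859 CPM. There even the lowest EAE library was above all basal libraries, by a small margin. Ddx58, which encodes the RNA sensor RIG-I, was at 7.15, 6.97 and 7.54 CPM in control basal and 64.7, 57.1 and 92.0 CPM in control EAE. In cKO it was at 8.03, 0.343 and 7.16 CPM in basal and 38.7, 53.2 and 11.5 CPM in EAE. Its response in control mice was 3.29 ± 0.81 (adjusted p = 0.0176), and 3.30 ± 0.20 in the 10-library fit. In EAE the genotypes did not overlap, and cKO EAE 3 was the lowest of the 6 libraries but above all basal ones. Ifih1 (the RNA sensor MDA5) and Dhx58 (LGP2, a regulator of both sensors) had control responses of 3.39 ± 0.95 and 3.28 ± 0.57. At EAE without cKO EAE 3, cKO was lower than control for Zbp1 (-1.35 ± 0.23, adjusted p = 0.0151), Ifi204 (-1.08 ± 0.24), Dhx58 (-0.86 ± 0.24) and Ifih1 (-0.69 ± 0.20), and Ddx58 did not pass (-0.57 ± 0.21, adjusted p = 0.0953).

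The IFIT proteins bind foreign RNA and block its translation. Their 4 genes lie side by side on chromosome 19 and all were called in control mice. Ifit3 (chr19:34583531-34588731, plus strand) was at 9.79, 8.85 and 10.1 CPM in control basal and 181, 130.5 and 203 CPM in control EAE (4.15 ± 0.72, adjusted p = 0.00409). In cKO mice its levels were 11.3, 11.0 and 6.44 CPM in basal and 91.8, 127 and 9.999 CPM in EAE. Ifit2 was at 12.9, 12.8 and 12.8 CPM in control basal, 15.1, 6.68 and 11.6 CPM in cKO basal, 90.0, 65.5 and 95.5 CPM in control EAE and 49.3, 63.5 and 13.9 CPM in cKO EAE. The highest cKO EAE library came close to the lowest control EAE library for both genes, without overlap. Ifit1 (chr19:34640871-34650009, plus strand) was at 4.70, 3.82 and 3.88 CPM in control basal and 61.2, 56.8 and 95.9 CPM in control EAE (4.10 ± 0.94, adjusted p = 0.0131). Its cKO basal libraries were at 3.84, 25.1 and 3.76 CPM and its cKO EAE libraries at 35.2, 47.5 and 4.60 CPM. The value of cKO basal 2 was far above every other basal library, and the cKO response with all 12 libraries was 1.37 ± 0.84 (adjusted p = 0.387). In the 10-library fit the cKO response was 3.44 ± 0.28 (adjusted p = 4.08e-06). Without cKO EAE 3 none of the 4 passed at EAE between the genotypes, with log2 differences of -0.72 ± 0.23 for Ifit1, -0.51 ± 0.17 for Ifit2, -0.58 ± 0.20 for Ifit3 and -0.31 ± 0.18 for Ifit3b. Ifit3 and Ifit3b are near-identical copies, and the share of reads assigned to each is uncertain.

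The OAS enzymes make oligoadenylates that activate RNase L, and Oasl1 and Oasl2 are related proteins. Oas1a (chr5:120896256-120907521, minus strand) was at 0.902, 0.775 and 0.499 CPM in control basal and 44.1, 27.4 and 36.9 CPM in control EAE (5.62 ± 0.98, adjusted p = 0.00417). In cKO mice it was at 0.582, 0 and 0.417 CPM in basal and 12.5, 20.5 and 1.10 CPM in EAE. The lowest cKO EAE value was still above all basal values. Oas2 was at 0.580, 0.332 and 0.555 CPM in control basal, 0.931, 0 and 0.954 CPM in cKO basal, 43.2, 27.0 and 42.9 CPM in control EAE and 13.6, 22.1 and 0.920 CPM in cKO EAE. Here cKO EAE 3 lay below 2 of the cKO basal libraries. Oasl2 went from 4.38, 4.70 and 6.49 CPM to 227, 179 and 276 CPM in control mice (5.44 ± 0.98, adjusted p = 0.00459) and from 7.16, 0.600 and 6.50 CPM to 105, 144 and 10.7 CPM in cKO mice. It had the highest mean of the family in every group per length, at 35.7 ± 7.58 RPKM in control EAE. Oas3 and Oasl1 had 0 counts in cKO basal 2, and control responses of 7.71 ± 1.33 and 5.98 ± 0.98. Oas3 had 2 counts in the cKO basal group and 299 in cKO EAE, a ratio of 144 scaled to library totals (95% Poisson interval 40.0 to 1193, counting error only). At EAE without cKO EAE 3, Oas3 (-1.52 ± 0.31, adjusted p = 0.0191), Oas1a (-1.07 ± 0.24), Oas2 (-1.02 ± 0.25) and Oasl2 (-0.81 ± 0.19) were lower in cKO, and Oasl1 did not pass (-0.86 ± 0.36, adjusted p = 0.14).

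Of the other antiviral enzymes and GTPases, Eif2ak2 encodes PKR, a kinase that stops translation on sensing RNA. It was at 5.93, 10.6 and 11.98 CPM in control basal and 78.4, 71.0 and 105 CPM in control EAE (3.14 ± 0.57, adjusted p = 0.00466). In cKO it was at 13.4, 4.11 and 11.8 CPM in basal and 49.2, 66.2 and 15.2 CPM in EAE, where the highest cKO library was below the lowest control library. Cmpk2, a mitochondrial nucleotide kinase, was already at 44.8, 39.3 and 38.2 CPM in control basal and reached 76.6, 64.6 and 93.0 CPM in control EAE. Its response of 0.93 ± 0.27 (adjusted p = 0.0392) was the lowest of the 38. In cKO mice Cmpk2 was at 41.2, 22.2 and 35.1 CPM in basal and 66.5, 65.0 and 37.4 CPM in EAE, and its EAE values overlapped between genotypes. The adjacent gene Rsad2 (viperin, an enzyme that makes a chain-terminating nucleotide) averaged 1.56 ± 0.744 CPM in control basal and 32.9 ± 15.8 CPM in control EAE (SD, n = 3), a log2 fold change of 4.38 ± 0.83. Rsad2 (chr12:26442746-26456452, minus strand) and Cmpk2 (chr12:26469204-26479837, plus strand) are read in opposite directions from neighbouring starts, and the Rsad2 window holds the response element core while the Cmpk2 window does not. Mx1 and Mx2, dynamin-like GTPases that are defective in many laboratory strains, had control responses of 6.37 ± 1.29 and 2.27 ± 0.62. In Mx2 the cKO EAE libraries 1 and 2 were within the control EAE range. Without cKO EAE 3, none of the 5 was called between the genotypes at EAE.

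Isg15 is a ubiquitin-like protein that is attached to other proteins, Herc6 is its main ligase in mice, and Usp18 removes it and also dampens the receptor. Isg15 (chr4:156199424-156200818, minus strand) was at 1.80, 0.830 and 1.497 CPM in control basal and 34.1, 24.0 and 45.7 CPM in control EAE (4.64 ± 0.84, adjusted p = 0.0046). In cKO mice it was at 1.05, 1.46 and 1.31 CPM in basal and 13.3, 18.4 and 0.982 CPM in EAE. The cKO EAE 3 library lay below all 3 cKO basal libraries. Herc6 was at 3.99, 4.65 and 4.66 CPM in control basal, 4.72, 4.11 and 4.53 CPM in cKO basal, 46.7, 36.3 and 54.8 CPM in control EAE and 26.5, 28.0 and 5.09 CPM in cKO EAE. Its basal libraries lay close together, cKO basal 2 included, and all 3 cKO EAE libraries were above them. Usp18 averaged 1.42 ± 0.0560 CPM in control basal and 28.1 ± 6.94 CPM in control EAE (SD, n = 3), a log2 fold change of 4.30 ± 0.73. At EAE without cKO EAE 3, cKO was lower for Isg15 (-1.06 ± 0.26, adjusted p = 0.0294) and Herc6 (-0.69 ± 0.17, adjusted p = 0.0289), and Usp18 did not pass (-0.65 ± 0.21, adjusted p = 0.0667).

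Parp14 and Parp9 belong to the ADP-ribosyltransferases, and Dtx3l is the ubiquitin ligase that pairs with Parp9. Parp14 (chr16:35832874-35871544, minus strand) was at 3.41, 4.59 and 4.77 CPM in control basal and 191, 136 and 187 CPM in control EAE (5.32 ± 0.93, adjusted p = 0.00428). In cKO it was at 5.47, 0.514 and 4.53 CPM in basal and 59.5, 80.6 and 6.26 CPM in EAE. Dtx3l was at 6.12, 6.75 and 6.99 CPM in control basal, 7.98, 3.34 and 7.40 CPM in cKO basal, 99.1, 69.8 and 95.4 CPM in control EAE and 33.0, 45.4 and 8.65 CPM in cKO EAE. For both genes every cKO EAE library was above every basal library and below every control EAE library. Parp9 had a control response of 4.43 ± 0.66. Between the genotypes at EAE the 3 genes had log2 differences of -1.75 ± 0.77, -1.54 ± 0.54 and -1.57 ± 0.68 with all libraries, in the order Parp14, Dtx3l and Parp9, and none passed. Without cKO EAE 3 all 3 were lower in cKO, at -1.23 ± 0.18 for Parp14 (adjusted p = 0.015), -1.11 ± 0.18 for Dtx3l (adjusted p = 0.0151) and -1.07 ± 0.20 for Parp9 (adjusted p = 0.0169). Dtx3l and Parp9 overlap on opposite strands, and no strand setting of the counting is known here.

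Ifitm3 and Bst2 act at membranes, where the first blocks viral fusion and the second (tetherin) holds budding virus on the cell. Ifitm3 (chr7:141009586-141010770, minus strand) was at 14.9, 9.35 and 9.37 CPM in control basal and 187, 154 and 204 CPM in control EAE (4.01 ± 0.56, adjusted p = 0.00318). In cKO mice it was at 9.61, 9.34 and 6.74 CPM in basal and 93.8, 99.4 and 17.3 CPM in EAE. All cKO EAE libraries were above all basal libraries. Bst2 (chr8:71534255-71537456, minus strand) was at 4.19, 2.71 and 3.22 CPM in control basal and 151, 100.5 and 107 CPM in control EAE (5.14 ± 1.07, adjusted p = 0.00843). Its cKO libraries were at 3.26, 17.5 and 2.03 CPM in basal and 36.3, 61.9 and 3.37 CPM in EAE. As for Ifit1, cKO basal 2 was far above the other basal libraries, and the cKO response moved from 2.12 ± 0.94 with it and cKO EAE 3 to 4.21 ± 0.34 in the 10-library fit. At EAE without cKO EAE 3, cKO was lower than control for both (Ifitm3 -0.84 ± 0.13, adjusted p = 0.015; Bst2 -1.22 ± 0.24, adjusted p = 0.0185).

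Of the 8 other induced genes, Lgals3bp, a secreted galectin-binding glycoprotein, had the highest RPKM in control EAE. It was at 23.4, 28.1 and 22.5 CPM in control basal and 589, 456 and 459 CPM in control EAE (4.34 ± 0.88, adjusted p = 0.0074). In cKO mice Lgals3bp was at 31.2, 3.43 and 22.9 CPM in basal and 182, 341 and 30.2 CPM in EAE. Its cKO EAE 3 value fell within the basal range and its cKO basal 2 value far below it. Trim30a, a feedback inhibitor of Toll-like receptor signalling, was at 3.35, 2.21 and 2.44 CPM in control basal and 87.7, 74.0 and 112 CPM in control EAE. In cKO Trim30a was at 3.49, 3.85 and 2.86 CPM in basal and 36.9, 57.8 and 5.21 CPM in EAE. Its control response was 5.09 ± 0.71 (adjusted p = 0.00318), and all 3 cKO EAE libraries were above the basal libraries. Samd9l, an antiviral factor that restrains cell growth, was at 2.90, 3.71 and 3.33 CPM in control basal and 56.6, 41.2 and 73.6 CPM in control EAE. In cKO Samd9l was at 4.60, 0 and 3.46 CPM in basal and 22.6, 31.1 and 5.77 CPM in EAE. It had 0 counts in cKO basal 2, and its EAE values did not overlap between genotypes.

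Ifi35, which binds the interferon-induced protein Nmi, was at 3.35, 2.55 and 1.83 CPM in control basal and 23.6, 15.8 and 22.3 CPM in control EAE (2.99 ± 0.71, adjusted p = 0.0149). Its cKO libraries were at 2.503, 9.25 and 1.67 CPM in basal and 9.14, 10.2 and 2.33 CPM in EAE, so that cKO basal 2 was above cKO EAE 1. With all 12 libraries the cKO response was 0.65 ± 0.66 (adjusted p = 0.622), and in the 10-library fit it was 2.20 ± 0.31 (adjusted p = 0.000335). Rtp4, a Golgi chaperone of receptors, was at 4.96, 4.04 and 2.72 CPM in control basal, 2.56, 2.23 and 2.505 CPM in cKO basal, 46.0, 40.7 and 52.7 CPM in control EAE and 22.4, 30.04 and 3.25 CPM in cKO EAE. In basal cords its 3 cKO libraries were all below the control libraries (-0.63 ± 0.37, adjusted p = 0.997), a difference that did not pass. Ifi27l2a, Ifi44 and Xaf1 had control responses of 6.12 ± 1.06, 5.01 ± 0.90 and 2.79 ± 0.48. Without cKO EAE 3, Samd9l (-1.03 ± 0.24, adjusted p = 0.0248), Ifi35 (-1.03 ± 0.20), Trim30a (-0.89 ± 0.21), Lgals3bp (-0.88 ± 0.24) and Rtp4 (-0.76 ± 0.15) were lower in cKO EAE, and Ifi27l2a, Ifi44 and Xaf1 did not pass.

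Per length, Ifitm3 had the highest mean of the members in every group, at 16.6 ± 4.76 RPKM in control basal and 268 ± 37.9 RPKM in control EAE (SD, n = 3). In cKO mice the spreads of the first 2 places overlapped. Ifitm3 was at 12.6 ± 2.33 RPKM and Bst2 at 8.40 ± 9.51 RPKM in cKO basal. In cKO EAE, Ifitm3 was at 104 ± 67.7 RPKM and Lgals3bp at 64.8 ± 54.7 RPKM. In control basal Ifitm3 was followed by Cmpk2 (9.79 ± 0.851 RPKM), Lgals3bp (8.67 ± 1.06 RPKM), Ifit3 (5.49 ± 0.371 RPKM) and Stat2 (5.47 ± 1.11 RPKM). The values of Cmpk2 and Lgals3bp, and those of Ifit3 and Stat2, did not differ beyond their spread. In control EAE it was followed by Lgals3bp (176 ± 26.7 RPKM), Bst2 (132 ± 30.4 RPKM), Ifit3 (98.2 ± 21.3 RPKM), Ifi27l2a (78.1 ± 7.12 RPKM) and Isg15 (45.7 ± 14.4 RPKM). Cmpk2 went from place 2 in control basal to place 18 in control EAE (18.8 ± 3.43 RPKM). The lowest RPKM belonged to Oas3 in control basal (0.0161 ± 0.0132) and to Mx2 in control EAE (3.35 ± 0.528). In basal cord 7 members (Zbp1, Ifi204, Oas1a, Oas2, Oas3, Oasl1 and Mx1) did not pass the filter on low counts in the comparison of genotypes.

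Without disease the genotypes gave 0 called members of 31 tested in edgeR, 0 of them at an unadjusted p below 0.05, and DESeq2 and limma voom also called 0. The background was 0%. The median log2 difference was -0.04 (range -0.63 to 1.49), against -0.02 for all genes tested. Irf9 was the tested member with all cKO libraries above all control libraries (1.79% of genes), and Rtp4 and Ifih1 had all cKO libraries below (4.11% of genes). The positive end of the range was set by Ifit1 (1.49 ± 0.84) and Bst2 (1.26 ± 0.86), both through cKO basal 2. Without that library 16 of the 31 members changed sign. The differences of Ifit1 and Bst2 were then -0.11 ± 0.24 and -0.33 ± 0.33, and 0 members of 33 tested were called.

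The ligands at the head of the pathway were nearly absent from the counts. Ifnb1 had 0 counts in all 12 libraries, and 15 to 17 of the 18 type I ligand genes had 0 counts in each group. A count of 0 allows up to 3 counts in a library, and none of the 18 could be tested. Interferon gamma, which induces an overlapping set of genes, was counted mainly in EAE. Ifng had 1 count in control basal and 67 in control EAE, a ratio of 68.0 scaled to library totals (95% Poisson interval 12.2 to 2685, counting error only). Its levels were 1.33, 1.08 and 1.54 CPM in control EAE and 0.341, 0.358 and 0 CPM in cKO EAE. The groups did not overlap, and the difference between them was -2.39 ± 0.66 (adjusted p = 0.0659), or -1.83 ± 0.43 (adjusted p = 0.0262) without cKO EAE 3.

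Of 9 receptor and kinase genes, 6 rose in control EAE (12.1% of all genes) and 0 were called in cKO EAE, where 0.0323% of all genes were. The same shares apply to the other lists of the pathway. Ifnar1 was at 29.9, 38.8 and 37.9 CPM in control basal and 117, 105 and 90.7 CPM in control EAE (1.55 ± 0.37, adjusted p = 0.0158). Ifnar2 had a log2 fold change of 2.02 ± 0.52 (adjusted p = 0.0232) and Tyk2 one of 1.65 ± 0.50 (adjusted p = 0.0447). Jak1, the kinase shared by the type I and type II receptors, was at 211, 213 and 210.2 CPM in control basal and 240.2, 255 and 237 CPM in control EAE and did not pass (0.20 ± 0.27, adjusted p = 0.708). The median log2 fold change of the list was 1.55, against 4.22 for the 38 members. Il10rb and Ifngr1 had the smallest p of the list, at 2.66 ± 0.41 and 2.40 ± 0.40.

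Irf1, an early target of interferon gamma, was at 4.83, 5.15 and 4.10 CPM in control basal, 4.77, 10.5 and 4.47 CPM in cKO basal, 189, 97.5 and 114 CPM in control EAE and 52.3, 53.8 and 6.13 CPM in cKO EAE. Its control EAE libraries were all above its cKO EAE libraries. The library cKO EAE 3 lay within the basal range only through cKO basal 2, and was above all other basal libraries. Of 7 further transcription factors examined, 6 rose in control EAE and 0 were called in cKO EAE. Their median log2 fold change in control mice was 4.26, and Irf3, which is activated by phosphorylation, did not pass (0.52 ± 0.17). Between the genotypes at EAE, Irf3 was the gene of this list called lower with all libraries (-0.59 ± 0.12, adjusted p = 0.0444, 1.54% of all genes). With library totals, the replicate block or all 12 libraries in the fit, 0 genes of the whole table were called in that comparison. All 7 were called lower without cKO EAE 3, where 9.1% of all genes were.

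Feedback inhibitors and upstream sensors were also raised in control EAE. Of 6 negative regulators 5 rose in control EAE, the member Usp18 included, led by Socs3 (6.44 ± 0.95) and Ptpn6 (5.13 ± 0.80), while Pias1 had a value of 0.01 ± 0.16. Of 12 genes of nucleic acid sensing and its adaptors 11 rose in control EAE, among them Tmem173 (4.71 ± 0.68), which encodes STING, and Trim25 (3.07 ± 0.43), which activates RIG-I. Tbk1 was the exception at 0.35 ± 0.17. Mavs, the adaptor of RIG-I and MDA5, was called lower in cKO EAE than in control EAE with all libraries (-0.62 ± 0.14, adjusted p = 0.0487, 1.54% of all genes). This call, like that of Irf3, was not made with library totals, the replicate block or all 12 libraries, where 0 genes were called. Without cKO EAE 3, 7 of the 12 were called lower (9.1% of all genes). In cKO mice 0 of either list was called with all 12 libraries.

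A second list of 38 interferon-stimulated genes that are not members, which shares 1 gene with the list of transcription factors, was examined in the same way. In control EAE 33 of 38 rose, with a median log2 fold change of 3.83. Parp10 (4.22 ± 0.59), a relative of Parp14, and Slfn1 (8.57 ± 1.25) were among them. Adar, which edits double-stranded RNA, had a value of 0.05 ± 0.76, and Oas1c one of 0.17 ± 0.38. In cKO mice 0 of 38 were called with all libraries and 34 in the 10-library fit, where 10.8% of all genes were called higher. Between the genotypes at EAE the counts were 0 of 38 with all libraries (1.54% of all genes lower) and 29 lower without cKO EAE 3 (9.1% of all genes).

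The 38 members lie on 15 chromosomes, and 15 of them form 6 clusters in which neighbours are less than 100 kb apart. Members of a cluster did not respond alike in all cases. In the Oas2 and Oas3 pair the control responses were 6.25 and 7.71, and in the Oasl2 and Oasl1 pair 5.44 and 5.98. Mx1 and Mx2 differed with 6.37 and 2.27, as did Rsad2 and Cmpk2 with 4.38 and 0.93. The 4 Ifit genes ranged from 2.70 to 4.15, and Parp14, Parp9 and Dtx3l from 3.73 to 5.32. Differences between members were not tested.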

How the data were processed

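The deposited table holds raw counts per gene with gene lengths; per the submitters' processing notes, which give no role or order, HISAT2 2.0.5, featureCounts 1.5.0-p3 and mm10 were used. Settings for strand, multimapping and annotation are not known here. Counts of 12 libraries (15128913 to 17592105 each) were scaled by TMM in edgeR 4.0.16 (R 4.3.3), filtered with filterByExpr (min.count 10) and tested with the quasi-likelihood test, with Benjamini-Hochberg adjustment over all genes tested. The EAE responses and their difference came from 1 fit of all 12 libraries, and the genotype comparisons from the 6 EAE or the 6 basal libraries. No 2 libraries were identical. The p-values measure the spread among libraries labelled as biological replicates; intervals of counts cover counting error only. RPKM used the deposited lengths. Errors of log2 values are standard errors from the fit.

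The members and lists were chosen with earlier results of these data known. Values in every library are given for the highest members of each role list by mean CPM (up to 2), members called in a cKO comparison or the interaction, and the 3 members with the smallest p in each comparison. Alternatives were DESeq2 1.42.0, limma 3.58.1 (voom with sample weights), library totals, no filter, other sets of libraries, a replicate block and each library left out. Same-numbered libraries of different groups did not deviate together in a common direction (correlations -0.53 to 0.45), so the numbers were not treated as pairs. Whether the libraries were paired is not known here. Promoters were taken from RefSeq (GRCm38.p6).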

Additional observations from a re-analysis of the deposited data

How the results depend on the processing

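In control mice 37 members were called at EAE with library totals (11.3% of all genes called higher) and 37 without a filter (5.74%). With the replicate block 36 were called (10.1%). The median ran from 3.89 to 4.36 when a library was left out. The cKO response depended most on the setting. Members called were 26 without a filter (1.41% of all genes), 31 with DESeq2 (5.67%) and 34 with limma voom (11.5%). Without cKO basal 2 and cKO EAE 3 there were 38 (10.8%). When 1 library was left out, 0 to 32 were called (0.0209% to 5.4% of all genes), with a median of 2.39 to 3.35. For cKO against control at EAE, 3 were called lower with DESeq2 (10.6% of all genes) and 8 with voom (15.5%). With a library left out, 0 to 23 were called lower (0% to 9.1% of all genes), and the median ran from -1.89 to -0.81. Without cKO EAE 2, 0 members were called lower while 7.9% of all genes were. The interaction median ran from -1.78 to -0.76 and the basal median from -0.24 to 0.09. With the replicate block 0 members were called in the cKO response, the interaction, and both genotype comparisons. The block thus changed only the calls of Cmpk2 and Ifih1 in control mice. Whether the numbers pair the libraries is not known here. Among the values tracked across all settings, signs reversed for the Cmpk2 interaction (0.0231 without cKO basal 1, 0.0220 without control EAE 3, 0.0609 without cKO EAE 3; over all left-out libraries -0.38 to 0.06) and for Ifit1 in basal cord (-0.00643 with voom, -0.109 without cKO basal 2; over all left-out libraries -0.11 to 1.90), none of which passed; the cause was not tested. Among all members, 16 of 31 changed sign in basal cord without cKO basal 2, and Mx2 changed sign at EAE without cKO EAE 3 and in the interaction in the 10-library fit. The longer motif lowered the share of members with a match to 29.6%. Over the whole table, 3183 genes were called in control mice (11120 with voom, 8149 from 6 libraries, 8673 in the 10-library fit, 1724 to 2073 with a library left out). In cKO mice 7 were called (493 without a filter, 1239 with DESeq2, 3648 with voom, 0 from 6 libraries, 2715 in the 10-library fit, 5 to 1075 with a library left out). The interaction gave 0 (91 with DESeq2, 2999 with voom). cKO against control at EAE gave 1374 (0 with library totals, with the block and from 12 libraries, 4131 with DESeq2, 5790 with voom, 0 to 3418 with a library left out), and the basal comparison 0 (1 with DESeq2). Library totals moved the median of all genes from -0.02 to -0.13 in basal cord and from -0.05 to 0.05 in the interaction. In basal cord the filter left 7 members untested between genotypes, and without cKO basal 2, where 33 were tested, it passed Oas1a and Oas2.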
